A study of Ovis aries with 6 samples.

Results

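Of the 34119 loci in the deposited table of sheep granulosa cell RNA, 1911 (5.60%) carried a gene name but had neither a strand nor an annotated transcript. They were chosen by 4 properties of the table, namely a filled gene name, an empty transcript type, a dot in place of the strand, and a mean of at least 10 counts over the 6 libraries. The table held 2758 loci of this kind at any count, and the 847 under the minimum were not used. Near that minimum, 131 loci inside it had means between 10 and 12 counts, and 166 outside it had means between 8 and 10. None of the 6809 loci with a dot for strand had a transcript type, and 4051 of them had no gene name.

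The RNA came from granulosa cells of sheep ovarian follicles that were either atretic or healthy, 3 libraries a group and 1 for each biological replicate. How many follicles or animals stand behind a library is not stated. Granulosa cells line the follicle and surround the oocyte, and atresia is the degeneration by which most follicles are lost. The groups were read from the initials in the sample titles with the design text, and the labels give no breed, age, treatment or pooling. The labels call the replicates independent but name no donors, so p-values measure the spread between these libraries. The title of the series names ferroptosis, an iron-dependent cell death, and an oxidised linoleic acid, and no library is labelled as treated with it.

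A transcript assembler reads the strand of a fragment from its splice junctions, so a fragment without a junction in reads that carry no strand is left without one. In libraries made by removing ribosomal RNA, reads inside introns are known to come from unspliced precursor RNA, retained introns, unannotated exons or other genes within the intron. Reads just past the end of a gene can come from a longer 3′ end or from transcription that runs on. Such loci are named after the gene they lie in or near, which is called the host here when it is a protein-coding locus on the same chromosome with the same name. The sources used here do not say whether counting used strand, so sense and antisense RNA of these loci could not be told apart.

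Each library held between 87455037 and 91597388 counts. Among the healthy libraries, replicate 3 stood apart. Its FPKM summed over 11 granulosa markers was 3002, against 970.3 and 964 in healthy replicates 1 and 2, while the atretic libraries had 834.5, 884.8 and 902.6. Much of that sum was INHBA, at 1660 FPKM in healthy replicate 3 against 323.6 and 326.7 in healthy replicates 1 and 2. The median over these markers was 22.87 FPKM against 11.06 and 10.69, and FOXL2 had 12.8 FPKM against 9.31 and 9.11. All 11 markers found, of 12 listed, reached at least 1 FPKM in at least 1 library. The receptor gene FSHR, a defining granulosa marker, had 7.42, 7.11 and 7.38 FPKM in atretic and 6.95, 6.72 and 8.61 FPKM in healthy libraries. Macrophage markers, 12 of 13 found, summed to 38.98, 48.08 and 41.19 FPKM in atretic libraries and to 142.3, 133.4 and 51.72 FPKM in healthy ones. Stroma markers, 7 of 7 found, summed to 15.56, 17.87 and 18.07 FPKM in atretic and to 40.34, 40.31 and 12.22 FPKM in healthy libraries. The part of other cell types and of healthy replicate 3 in the fold changes was not tested, and each result below is given with and without that library where it matters. In bulk RNA, fewer cells of a type and less RNA per cell cannot be told apart.

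The unstranded loci were short and lay mostly inside long protein-coding genes. Their length, end minus start, had a median of 527 bases, with a middle range of 357 to 980.5 bases and extremes of 199 and 69311 bases. They carried 1021 distinct names. A host was found for 1743 of them, on 911 protein-coding loci, of which 53 loci had a host that the table shares between several genes. The remaining 168 had no host. Of these, 113 carried the name of a long noncoding RNA locus, 36 a name with no annotated locus, and 19 the names of small RNA, pseudogene or ribozyme loci. Names that are only an Ensembl identifier were held by 308 of the 1911 loci.

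Inside the host span lay 1489 loci, 85.4% of those with a host. When each host was divided into 4 equal stretches from its 5′ end, they held 458, 404, 337 and 290 of these loci, so their number was lower toward the 3′ end. The hosts were long, with a median of 113248 bases when each of the 706 hosts was counted once, against 24568.5 bases for all protein-coding loci with a mean of at least 10 counts. A further 241 loci (13.8%) lay beyond the host's 3′ end, at a median distance of 752 bases, and 215 of them within 2000 bases. Before the 5′ end lay 13 loci (0.746%), at a median distance of 16490 bases. The loci beyond the 3′ end had a median length of 623 bases and a median mean count of 55, against 515 bases and 34.2 counts for those inside the host. For 26 of the 1654 pairs tested below, the host was more than 10000 bases away. Of these, 3 carried the generic small nuclear RNA name U6, and a shared name there does not mark a shared gene.

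**Figure D1:**
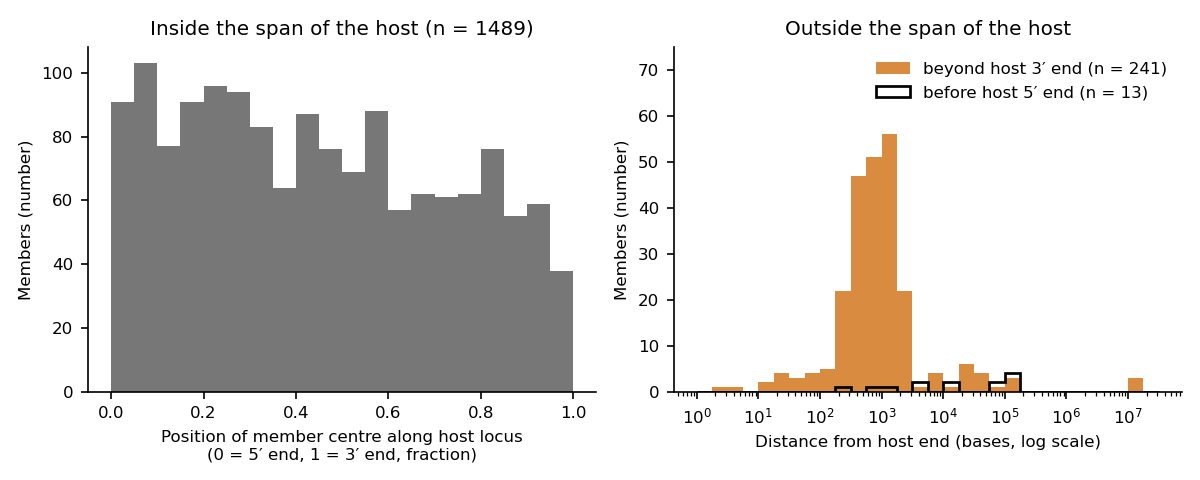
Number of unstranded named loci by the position of their centre along the host from its 5′ end (0) to its 3′ end (1), left, and by distance in bases on a log scale for loci outside the host, right. The 1489 loci inside the host thin out toward the 3′ end, and most of the 241 loci beyond the 3′ end lie within 2000 bases of it.

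A few long genes held many of these loci. Of the gene names with a host, 265 had at least 2 unstranded loci and 69 had at least 5, which together held 601. IMMP2L, a gene on chromosome 4 for a subunit of the mitochondrial inner membrane peptidase, held 37. Their counts summed to 9886, 9441 and 10183 in atretic and 8706, 7984 and 8217 in healthy libraries. The protein-coding locus of IMMP2L itself had 26, 38 and 36 counts in atretic and 41, 64 and 28 in healthy libraries, far fewer than the unstranded loci inside it. RBFOX1, a splicing regulator gene on chromosome 24, held 27 loci, which summed to between 721 and 872 counts in atretic and between 762 and 1068 in healthy libraries. RASGEF1B on chromosome 6, a guanine nucleotide exchange factor, held 20, and GAREM1 on chromosome 23, an adaptor of growth factor signalling to ERK, held 19. The growth factor homologue FGF14 and KCNIP4, a potassium channel interacting protein, held 16 each.

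Most of these loci were low in counts, and 1 locus took more reads than all others together. The median mean count was 36.8, 479 loci had a mean of at least 100 counts and 68 of at least 1000. In 302 loci at least 1 library had 0 counts. The unstranded loci took 1.05, 1.15 and 0.906% of all counts in atretic libraries and 0.899, 0.96 and 0.918% in healthy ones. MSTRG.19191, 5179 bases at chr25:4415554-4420733 and named after a long noncoding RNA locus by its Ensembl identifier, took 552449, 673953 and 438678 counts in atretic and 462113, 516247 and 449603 in healthy libraries. The groups overlapped at this locus, with a log2 fold change of 0.28 (SE 0.22) and an adjusted p of 0.712 in edgeR. Without it, the rest took 0.421, 0.403 and 0.42% in atretic and 0.393, 0.396 and 0.425% in healthy libraries. The interval behind such a share covers counting error only and is narrow at this depth. Among the 1911 loci, 1840, 1840 and 1849 had at least 1 count in atretic and 1849, 1848 and 1777 in healthy libraries. Healthy replicate 3 had the most loci at 0, 134 against 62 to 71 in the other 5 libraries.

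Per length, these loci often approached the level of their host. The ratio of the mean FPKM of the locus to that of its host had a median of 63.4% over 1654 pairs, with a middle range of 37.2 to 117%, and 503 loci were above their host. The median was 61.5% for 1418 loci inside the host, 74.3% for 223 beyond its 3′ end and 63.9% for 13 before its 5′ end. It was 57.7% under 500 bases, 61.0% from 500 to under 1000, 67.6% from 1000 to under 2000 and 75.6% from 2000 bases. Over 189 of the unstranded loci, the length behind the deposited FPKM was in proportion to the whole span. Relative to them it was 0.256 of the span in the median of 8493 protein-coding loci, with percentiles 5 and 95 at 0.0295 and 0.958. The loci were kept by their count, so a short one had to reach a higher FPKM to be included.

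Other loci with high counts are described next, those of CRIM1 and ATXN2 beside their hosts. CRIM1, a membrane protein that binds bone morphogenetic proteins, had a locus of 24567 bases inside the gene at chr3:93267903-93292470. It had 21240, 19123 and 19949 counts in atretic and 10823, 11167 and 7430 in healthy libraries. All atretic values were above all healthy ones. The protein-coding CRIM1 locus had 50995, 49606 and 51376 counts in atretic and 45086, 45791 and 17418 in healthy libraries. There too, all atretic counts were above all healthy ones.

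ATXN2, an RNA-binding protein gene, had a locus (MSTRG.11477) with 13941, 12826 and 14897 counts in atretic and 11425, 12635 and 14161 in healthy libraries, near the 15732 to 17681 and 16050 to 17091 counts of its host. The groups overlapped in both. Its log2 fold change was 0.16 with an adjusted p of 0.832 over all libraries in edgeR, and without healthy replicate 3 it rose by 0.39 with one of 0.0428. A locus of 1253 bases at chr6:32880401-32881654, MSTRG.25161, named by an Ensembl identifier, had 16117, 16724 and 18138 counts in atretic and 10541, 9679 and 4034 in healthy libraries, with no overlap. HMGA2, a chromatin protein gene, had a locus of 55454 bases (MSTRG.21586) with 6139, 6311 and 5826 counts in atretic and 7194, 7261 and 10997 in healthy libraries. The atretic counts were lower there, and after normalisation for library composition the log2 fold change was -0.46 (SE 0.28) with an adjusted p of 0.62 in edgeR. It was -0.06 with an adjusted p of 0.683 without healthy replicate 3.

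Loci inside SUGCT and TOX rested on 1 library. SUGCT, a mitochondrial CoA transferase, had a locus of 45842 bases with 2978, 2623 and 2642 counts in atretic and 1339, 1120 and 26332 in healthy libraries. Its host had 20962, 19311 and 22209 counts in atretic and 12325, 13194 and 183328 in healthy libraries, so healthy replicate 3 was far above the rest in both. TOX, a high-mobility-group transcription factor gene, held the longest locus, 69311 bases, with 1633, 1854 and 1863 counts in atretic and 1390, 1593 and 15221 in healthy libraries. Over all 6 libraries edgeR gave SUGCT a log2 fold change of -1.96 with an adjusted p of 0.649 and TOX one of -1.90 with 0.567. Without healthy replicate 3 both were higher in atretic, SUGCT by 1.35 with an adjusted p of 0.00103 and TOX by 0.44 with 0.0493.

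**Figure D2:**
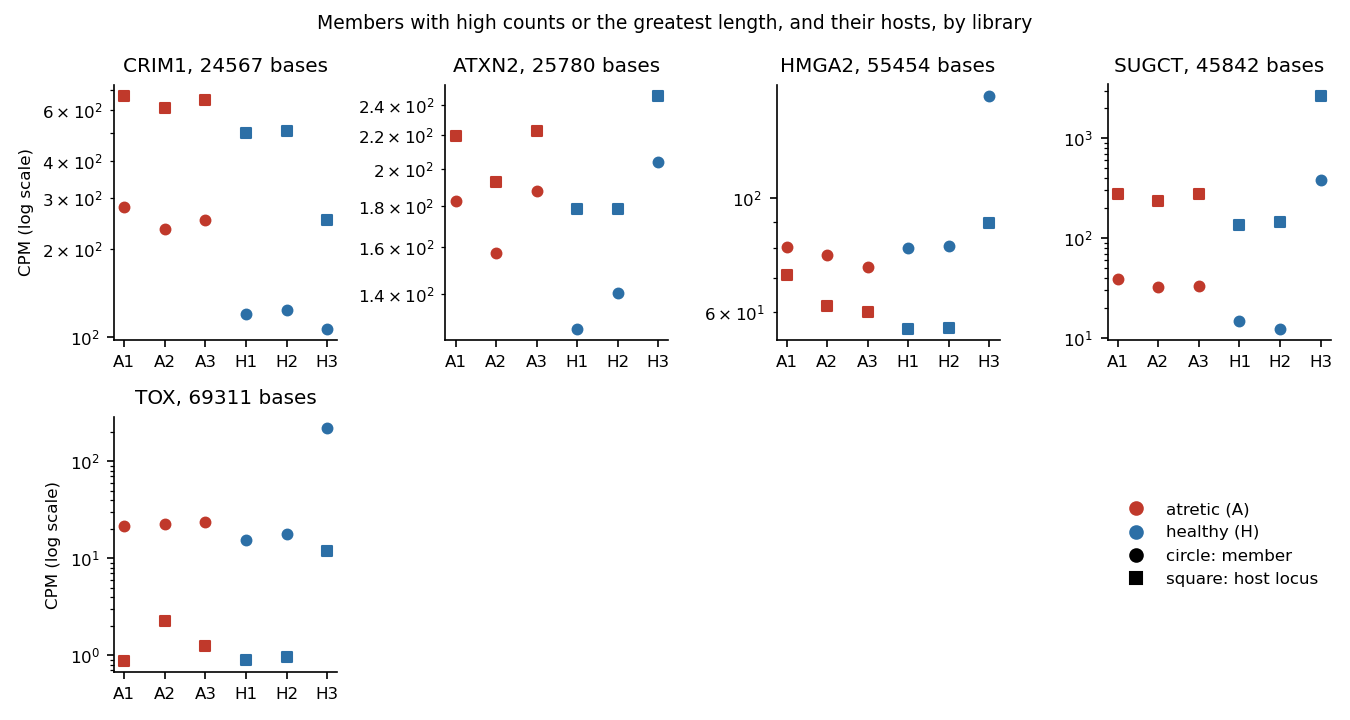
CPM on a log scale in the atretic (A1 to A3) and healthy (H1 to H3) libraries for unstranded loci with high counts or the greatest length (circles) and their host loci (squares), coloured by group. CRIM1 separates the groups, SUGCT and TOX are highest in H3, and at HMGA2 and TOX the unstranded locus took more counts than its host in every library.

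With all 6 libraries, no unstranded locus was called different between atretic and healthy cells by the edgeR test across loci. The edgeR quasi-likelihood test, with Benjamini-Hochberg adjustment over all 21372 named loci with a mean of at least 10 counts, called 0 of the 1911 at an adjusted p of 0.05, and 2 of all 21372 (0.00936%). At an unadjusted p of 0.05 it had 157 of the 1911, 101 higher and 56 lower in atretic cells, which is 8.22% against 10.8% of all tested loci (5.32% higher and 5.47% lower). DESeq2 called 30 of them, 26 higher and 4 lower, against 3.15% of all loci (1.83% higher and 1.31% lower). Several loci described in this report were among these 30, so the 2 tests differ on them. The loci called higher included those of CRIM1 (DESeq2 adjusted p of 1.1e-11), RELN, ST7, GAREM1 (MSTRG.17965) and PRKD1 (MSTRG.12239), with MSTRG.25161 and MSTRG.25277. That of GNG2 was called lower (DESeq2 adjusted p of 0.0338). Limma on log2(FPKM + 1) called 1 of them, against 0.0421% of all loci. The edgeR test over loci with a mean of at least 1 FPKM called 1 of 569, against 0.068%, and with unnamed loci included it called 0, against 0.082%. The median log2 fold change was 0.01 over the unstranded loci and -0.03 over all tested loci, and 964 of the 1911 were above 0. In CPM, every atretic library was above every healthy one in 198 loci (10.4%, against 10.1% of all loci). Every atretic library was below every healthy one in 100 (5.23%, against 9.21%), so the groups did not overlap in 15.6%, against 19.4%.

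Leaving out healthy replicate 3 moved these counts most. The same edgeR test with 3 atretic and 2 healthy libraries called 101 unstranded loci, 70 higher and 31 lower in atretic cells (3.66% and 1.62%, against 6.5% and 5.35% of all tested loci, 11.8% in all). The median log2 fold change was 0.19 in this fit. Each library was left out in turn, and this fit is given in detail after its values were seen. The median SD of log2 CPM of the unstranded loci was 0.66 over the 3 healthy libraries and 0.35 over healthy replicates 1 and 2. Adjusted p-values without healthy replicate 3, here and below, rest on that narrower spread and may be too small. The share called differed with depth. Among loci with a mean of at least 100 counts, 55 of 479 unstranded loci were higher (11.5%) and 16 lower (3.34%). With a strand but no transcript type, 768 of 4469 loci were higher (17.2%) and 87 lower (1.95%). Of 10260 protein-coding loci, 474 were higher (4.62%) and 883 lower (8.61%).

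Among the unstranded loci with no overlap and higher values in atretic cells, CRIM1 had the most counts, while per length MSTRG.25161 was higher, with a mean of 101.5 FPKM over the 6 libraries against 6.18 FPKM. For CRIM1, at 254.5 ± 22.2 CPM in atretic and 117.1 ± 8.97 CPM in healthy libraries (SD, n = 3 each), the log2 fold change was 1.12 (SE 0.13), with an adjusted p of 0.0965 in edgeR over all libraries. Without healthy replicate 3 it rose by 1.06 with an adjusted p of 0.000526, and its host by 0.34 with 0.0188. ST7, named for suppression of tumorigenicity, had a locus of 14420 bases at chr4:57760910-57775330 with 1912, 1885 and 2270 counts in atretic and 1059, 1160 and 900 in healthy libraries. Every atretic library was above every healthy one, with a log2 fold change of 1.03 (SE 0.14), an adjusted p of 0.106 over all libraries and 0.00276 without healthy replicate 3 in edgeR. The host of ST7 ran the other way in raw counts, 424, 430 and 355 in atretic against 551, 509 and 394 in healthy libraries.

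RELN encodes reelin, a secreted matrix protein known from neuronal migration. Its locus of 663 bases at chr4:50517807-50518470 had 145, 238 and 153 counts in atretic and 14, 24 and 11 in healthy libraries. The groups stood far apart, with a log2 fold change of 3.52 (SE 0.41), an adjusted p of 0.0965 over all libraries and 0.00284 without healthy replicate 3 in edgeR. The RELN host locus had 43, 0 and 0 counts in atretic and 42, 61 and 0 in healthy libraries.

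MSTRG.25277, 342 bases at chr6:49766120-49766462 and named by an Ensembl identifier, had 116, 140 and 167 counts in atretic libraries and 0 in all 3 healthy ones. With the floor of a zero set at 3 counts over the healthy group, its level was at least 148.2-fold higher in atretic cells after scaling for library size. That bound covers counting error only. Zeros in a whole group were more often atretic, with 14 loci at 0 in all atretic and 3 at 0 in all healthy libraries. For MSTRG.25277 the test values follow. Its adjusted p was 0.0965 in edgeR over all libraries and 0.000679 without healthy replicate 3. GAREM1 (MSTRG.17965, 4495 bases) had 702, 520 and 602 counts in atretic and 332, 361 and 256 in healthy libraries, a log2 fold change of 1.02 with an adjusted p of 0.212 in edgeR. PRKD1, a protein kinase of the D family, had 552, 558 and 687 counts in atretic and 367, 402 and 240 in healthy libraries at MSTRG.12239, a log2 fold change of 0.92 with an adjusted p of 0.232 in edgeR. Without healthy replicate 3, both passed that test, GAREM1 with an adjusted p of 0.0203 and PRKD1 with one of 0.0258.

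On the lower side 100 loci kept the groups apart (5.23%, against 9.21% of all tested loci). On the higher side 198 did (10.4%, against 10.1%). C5AR1, the receptor for complement fragment C5a known from myeloid cells, had a locus of 613 bases at chr14:57792630-57793243, 987 bases past its 3′ end. It had 57, 72 and 110 counts in atretic and 352, 269 and 108 in healthy libraries, where raw counts overlapped and CPM values did not. Its log2 fold change was -1.49 (SE 0.44) with an adjusted p of 0.347 over all libraries in edgeR. Without healthy replicate 3 it fell by 1.78 with an adjusted p of 0.014, and the C5AR1 host by 1.54 with 0.00174. The macrophage marker sums given above, from a list without C5AR1, were 38.98 to 48.08 FPKM in atretic and 142.3, 133.4 and 51.72 FPKM in healthy libraries. Their part in the result was not tested. CYBB, the 1 listed macrophage marker with an unstranded locus, had a fold change of the other sign at that locus, as given below.

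GNG2, a G protein gamma subunit, had a locus of 6939 bases at chr7:45737408-45744347 with 208, 190 and 171 counts in atretic and 855, 1100 and 192 in healthy libraries. Healthy replicate 3 lay among the atretic raw counts. The log2 fold change was -1.76 (SE 0.52), with an adjusted p of 0.349 over all libraries in edgeR. It fell by 2.18 with an adjusted p of 0.000622 without healthy replicate 3. RP2, a GTPase activating protein of ciliary trafficking, had 78, 105 and 130 counts in atretic and 198, 249 and 213 in healthy libraries at MSTRG.1152, 1050 bases past its 3′ end. DACH2, a transcription cofactor, had 53, 47 and 54 counts in atretic and 101, 114 and 99 in healthy libraries at MSTRG.1362. The groups did not overlap in either, with log2 fold changes of -1.02 and -0.97 and adjusted p-values of 0.338 and 0.38 in edgeR. Without healthy replicate 3 the changes were -0.92 and -0.88, and neither passed, with adjusted p-values of 0.0948 and 0.166. PLD1, a phospholipase D, had 34, 13 and 31 counts in atretic and 92, 94 and 66 in healthy libraries at MSTRG.4135, inside a host with 16161 to 58778 counts in every library. STC1, a secreted glycoprotein hormone, had 12, 18 and 23 counts in atretic and 88, 29 and 224 in healthy libraries at MSTRG.13914, 103 bases past its 3′ end. The log2 fold changes were -1.60 at PLD1 and -2.75 at STC1, with adjusted p-values of 0.366 and 0.368 in edgeR. Without healthy replicate 3 they were -1.64 and -1.54, and neither passed, with 0.103 and 0.21. The STC1 host had 803 counts in healthy replicate 3, against 167 and 163 in healthy replicates 1 and 2.

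**Figure D3:**
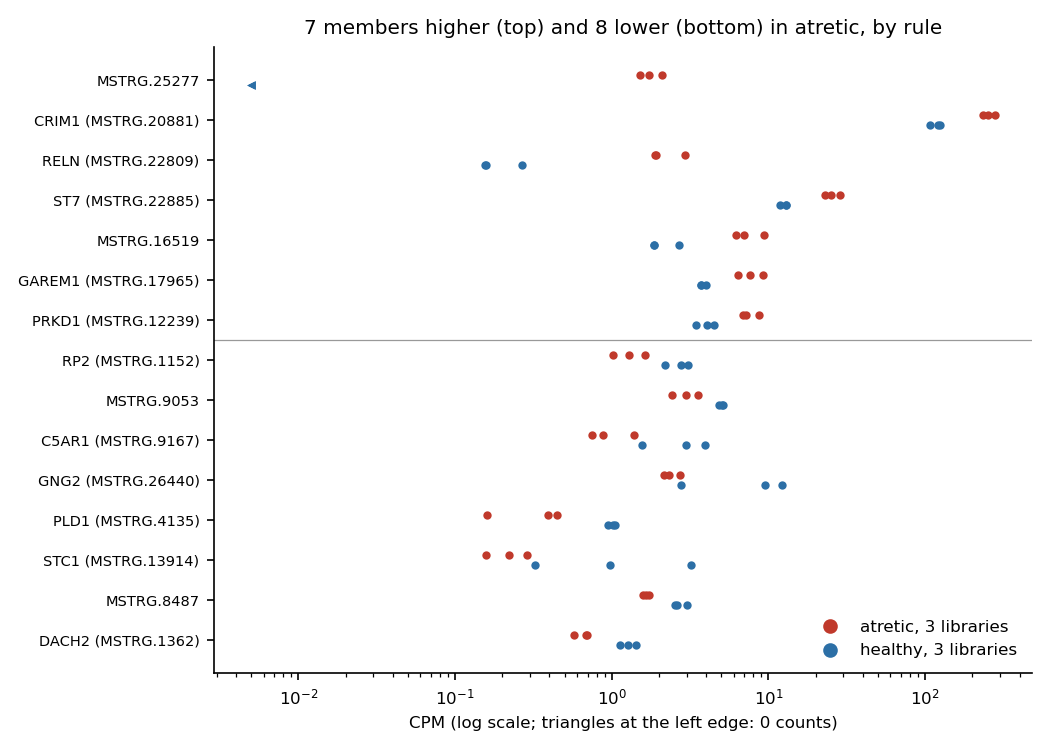
CPM on a log scale in each library for 7 of the unstranded loci with the smallest p among those higher in atretic cells (top) and 8 among those lower (bottom), taken from loci with a mean of at least 50 counts and no overlap between the groups. Red points are the 3 atretic and blue points the 3 healthy libraries, and a triangle at the left edge marks 0 counts. The separation is wide for RELN and MSTRG.25277 and narrow for C5AR1 and GNG2.

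Between the length classes, the longest loci held most of the calls made without healthy replicate 3. Among 246 loci of 2000 bases or more, 44 were higher (17.9%) and 15 lower (6.10%) in atretic cells in that fit. Over all tested loci these shares were 6.5% and 5.35%. They were 17.2% and 1.95% for stranded loci without a transcript type at 100 counts or more, whose median mean count was 1028.5. From 1000 to under 2000 bases 9 of 228 were higher (3.95%) and 6 lower (2.63%). From 500 to under 1000 bases 8 of 548 were higher (1.46%) and 3 lower (0.547%), and under 500 bases 9 of 889 were higher (1.01%) and 7 lower (0.787%). Length and depth moved together, since the median mean count was 19, 46.8, 132 and 442 from the shortest to the longest class, and the part of length itself was not tested. With all 6 libraries the median log2 fold changes were -0.01, -0.00, 0.03 and 0.06 in the same order, and the median sizes of the change were 0.76, 0.52, 0.36 and 0.39. Without healthy replicate 3 the medians were 0.21, 0.10, 0.13 and 0.32.

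The spread between libraries was compared with that of other loci at low and at high counts. At mean counts from 10 to 100, the median SD of log2 CPM was 0.51 in atretic and 0.71 in healthy libraries for the unstranded loci, and 0.48 and 0.69 for protein-coding loci. At 100 counts or more it was 0.22 in atretic and 0.46 in healthy libraries, against 0.14 and 0.26 for protein-coding loci and 0.18 and 0.40 for stranded loci without a transcript type. The unstranded loci thus varied more than protein-coding ones in that range, where their median mean count was 259.7 against 1856.

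**Figure D4:**
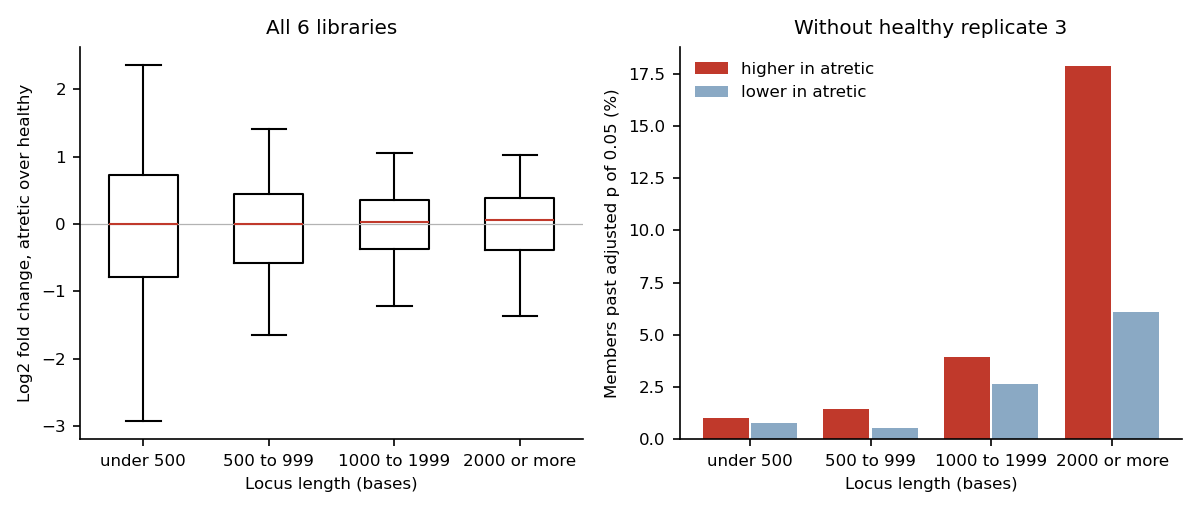
Log2 fold change of the unstranded loci, atretic over healthy, by length class with all 6 libraries (left, median, quartiles and whiskers at percentiles 5 and 95) and percentage of each class past an adjusted p of 0.05 in edgeR without healthy replicate 3 (right, red higher and blue lower in atretic). The spread narrows from the class under 500 bases to longer ones, and 17.9% of loci of 2000 bases or more were higher against 6.10% lower. Over all tested loci these shares were 6.5% and 5.35%.

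Set against their hosts, no unstranded locus was called as changing by a different amount with all 6 libraries. The difference in the log2 ratio of locus to host was tested with limma over the 1654 pairs whose host had a mean of at least 10 counts, and 0 pairs passed an adjusted p of 0.05 (0%). At an unadjusted p of 0.05 there were 110 pairs (6.65%), 67 higher and 43 lower in atretic cells, and the smallest adjusted p was 0.212. An edgeR fit with the host count as an offset also called 0 pairs, with 121 at an unadjusted p of 0.05. The median ratio difference was 0.12 on the log2 scale, with 951 of 1654 pairs above 0. It was 0.13 for loci inside the host and -0.02 for loci beyond its 3′ end. These medians were 0.22 over all pairs, 0.26 inside the host and 0.03 beyond its 3′ end when healthy replicate 3 was left out. The median fold changes in these pairs were 0.01 for the unstranded loci and -0.09 for their hosts.

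Among pairs with at least 50 counts in locus and host, ST7 and GAB3 were among those with the smallest p-values for a higher ratio in atretic cells. The log2 ratio difference was 1.22 (SE 0.23) for ST7 and 3.35 (SE 0.58) for GAB3, an adaptor protein of growth factor receptors, each with an adjusted p of 0.212 in limma. A locus named by an Ensembl identifier (MSTRG.27957) followed, with a difference of 0.82 and an adjusted p of 0.321. At GAB3 the locus of 259 bases at chrX:86108312-86108571 had 53, 79 and 109 counts in atretic and 38, 33 and 10 in healthy libraries, against 8, 18 and 50 in atretic and 101, 106 and 22 in healthy libraries for its host. Locus and host thus stood in opposite order between the groups, apart from healthy replicate 3 of the host.

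The opposite pattern was seen at GRIA2, a subunit of AMPA-type glutamate receptors. The host had 162, 180 and 182 counts in atretic and 58, 51 and 101 in healthy libraries, all atretic above all healthy. The locus inside it, MSTRG.11320 with 11953 bases at chr17:49621205-49633158, had 1680, 1784 and 1547 counts in atretic and 2142, 1911 and 1644 in healthy libraries, and its own log2 fold change was -0.12 (SE 0.13). The ratio difference was -1.56 (SE 0.33) with an adjusted p of 0.274 over all libraries in limma. A neighbouring GRIA2 locus, MSTRG.11319, had a ratio difference of -1.32 with an adjusted p of 0.509. PARM1, an androgen-regulated mucin-like protein, had 533, 656 and 611 counts in atretic and 1251, 1130 and 101 in healthy libraries at MSTRG.25575, 858 bases past its 3′ end, and 324, 339 and 322 in atretic and 421, 350 and 9 in healthy libraries at the host. Its ratio difference of -1.36 had an adjusted p of 0.689 in limma (-0.77 without healthy replicate 3, with 0.146), and that of GNG2, -1.49, one of 0.509.

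Without healthy replicate 3, 2 pairs passed (0.121%). The ratio fell at GRIA2 (MSTRG.11320) by 1.95 with an adjusted p of 0.00337 in limma, and rose at CRIM1 (MSTRG.20881) by 0.71 with one of 0.0306.

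The fold changes of an unstranded locus and its host ran more closely together in longer loci. Across pairs, Pearson's r between the log2 fold changes was 0.23 under 500 bases, 0.36 from 500 to under 1000, 0.64 from 1000 to under 2000 and 0.76 from 2000 bases. Without healthy replicate 3 it was 0.17, 0.41, 0.56 and 0.62 in the same order. The points share the same libraries and many share a host, and the shorter classes have fewer counts. Over the 409 pairs with at least 100 counts in the unstranded locus, r was 0.63 with all libraries and 0.50 without healthy replicate 3. The median size of the ratio difference was 0.86, 0.54, 0.37 and 0.25 from the shortest to the longest class.

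**Figure D5:**
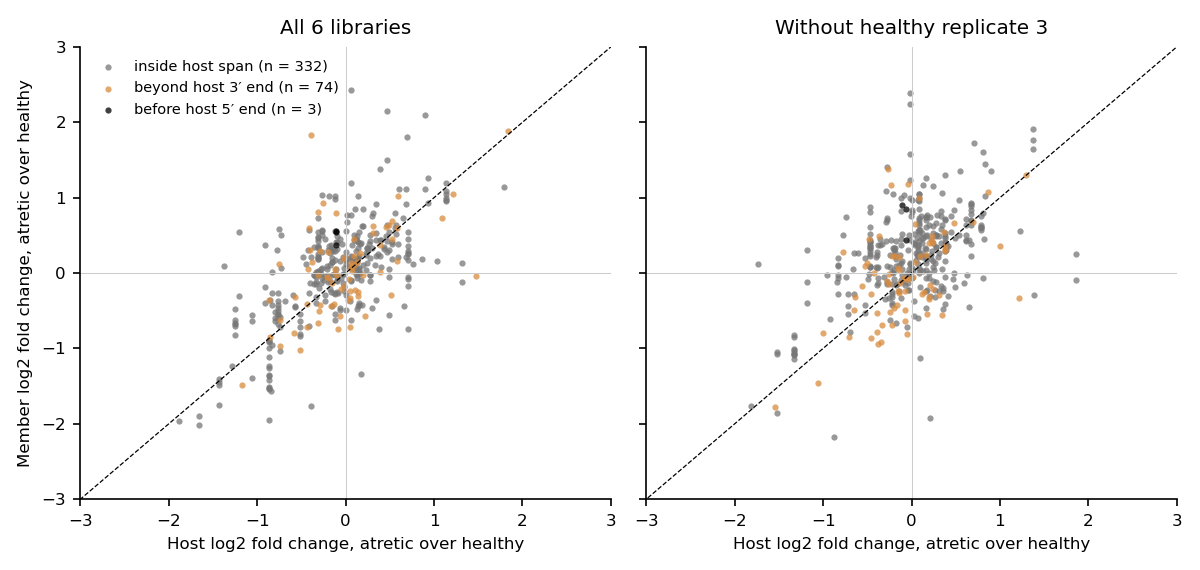
Log2 fold change, atretic over healthy, of each unstranded locus (vertical) against that of its host (horizontal) for the 409 pairs with a mean of at least 100 counts in the unstranded locus, with all 6 libraries (left) and without healthy replicate 3 (right). Points are coloured by position and the dashed line marks equal change. The points follow the line, with r of 0.63 on the left and 0.50 on the right, and on the right many lie above it.

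Calls made without healthy replicate 3 were compared with those of the hosts in the same fit. Of the 70 loci higher in atretic cells, 61 had a tested host. The host was also higher in 19, lower in 0 and not called in 42. Of the 31 lower loci, 28 had a tested host, which was also lower in 15, higher in 0 and not called in 13. An uncalled host is not shown to differ from its locus. The calls came under 56 and 24 names, so several loci in one gene were counted more than once.

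There were 12 names with several called loci, given here after their values were seen, and each had its calls in 1 direction. At KCNIP4, 6 loci fell by 0.82 to 1.27 on the log2 scale and the host by 1.33, with an adjusted p of 0.012 in edgeR without healthy replicate 3. Counts over all 16 KCNIP4 loci summed to 3644, 2804 and 3640 in atretic and 7574, 7874 and 386 in healthy libraries. The healthy sum was highest in replicates 1 and 2 and lowest of all in replicate 3. VAV3, a guanine nucleotide exchange factor, had 3 called loci with log2 fold changes of -2.58 to -1.05 and a host with -1.52. At NELL1, a secreted protein of bone growth, 3 loci rose by 1.64 to 1.91 and the host by 1.37. PDZRN3, a ubiquitin ligase with PDZ domains, had 4 loci with rises from 0.43 to 0.71, and the host rose by 0.62. With all 6 libraries the PDZRN3 loci had edgeR log2 fold changes of -0.84 to -0.55, with healthy replicate 3 highest in each. With all 6 the NELL1 loci had 0.17 to 0.37 and the KCNIP4 loci -0.77 to -0.27.

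Of the remaining names in the fit without healthy replicate 3, ACOT7 and PDZRN4 had a called host. At IMMP2L, 2 loci rose by 0.61 and 0.87 while the host had a log2 fold change of -0.47 with an adjusted p of 0.631 in edgeR. KAZN, KCNK1, PRKD1, RASGEF1B and the generic name U6 had 2 called loci each, all higher in atretic cells, and hosts with changes from 0.08 to 0.80 that did not pass. ACOT7, an acyl-CoA thioesterase, had 2 loci that rose by 1.02 and 1.44, and its host rose by 0.83. With all 6 libraries both RASGEF1B loci had log2 fold changes below 0 in edgeR, the lower at -1.35.

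PDZRN4, a relative of PDZRN3 on chromosome 3, had 3 called loci with rises of 0.60 to 0.76, and its host rose by 0.78 in that fit. MSTRG.21501 had 2684, 2702 and 2922 counts in atretic and 1935, 1782 and 548 in healthy libraries. MSTRG.21504 had 1229, 1597 and 1479 in atretic and 1108, 1039 and 233 in healthy libraries. Between these lies MSTRG.21503, 24736 bases long, with 3254, 3108 and 3678 counts in atretic and 2208, 2777 and 0 in healthy libraries. All 3 were lowest in healthy replicate 3, and the long locus between the others had no count there.

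Such single zeros came mostly from 1 library. Among 787 unstranded loci with a mean of at least 50 counts, 16 had 0 in exactly 1 library, and that library was healthy replicate 3 in 14. The others were a DFFA locus at 0 in atretic replicate 1 and a locus with the generic name U1 at 0 in atretic replicate 3, where atretic replicates 1 and 2 had 2833 and 2771 counts and the healthy libraries 2219, 2172 and 1649. HSPA6, a heat shock protein, had 354, 347 and 407 counts in atretic and 224, 117 and 0 in healthy libraries at MSTRG.3243, 534 bases past the 3′ end. A count of 0 allows up to 3 counts in that library, by counting error only. These loci were chosen after their values were seen.

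Over the 787 loci, the log2 CPM of healthy replicate 3 minus the mean of healthy replicates 1 and 2 had a median of 0.09. It was above 2 in 59 loci and below -2 in 58. Their hosts deviated alike, with a Pearson's r of 0.70 over 716 pairs, which share the 3 libraries. Healthy replicate 3 was the highest library in 26.1% and the lowest in 23.4% of the 1911 loci, against 29.3% and 31.1% of all tested loci. At RASGEF1B its 20 loci summed to 4116, 4248 and 4028 counts in atretic and 3156, 3036 and 21838 in healthy libraries, and the host had 8362, 9116 and 8287 in atretic and 9190, 9235 and 26922 in healthy libraries. At FGF14 the 16 loci summed to 1088, 1036 and 1063 in atretic and 1045, 1175 and 92 in healthy libraries. The replicate was far above the others at RASGEF1B and far below them at FGF14.

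The gene lists considered here had almost no unstranded loci, while 839 of 12952 protein-coding loci with a mean of at least 10 counts (6.48%) were the host of at least 1. The lists of heat shock (12 genes), ferroptosis (20), cholesterol synthesis (19) and proliferation genes (20) held none, and neither did the granulosa, theca, endothelial, stroma, oocyte and T cell markers. HSPA6, described above, is a heat shock gene outside that list. Among 21 immediate-early genes, NR4A3, an orphan nuclear receptor, had 1 locus (MSTRG.13983), 1947 bases past its 3′ end, with 30, 64 and 93 counts in atretic and 17, 124 and 43 in healthy libraries. The groups overlapped, with a log2 fold change of 0.10 (SE 0.77) and an adjusted p of 0.976 in edgeR. Among 13 macrophage markers, CYBB, a subunit of the phagocyte oxidase, had 1 locus (MSTRG.923) with 113, 15 and 111 counts in atretic and 62, 12 and 0 in healthy libraries, an overlap as well.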

How the data were processed

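The authors deposited 1 table with a raw count and an FPKM value per locus for 6 libraries, per the file headers. The submitters' processing notes name StringTie 2.1.6, HISAT2 2.0.4, SAMtools, cutadapt 1.9 and FastQC 0.11.9 without roles. The sources used here give no genome build, annotation or strand setting, and coordinates stand as in the table. The deposited FPKM values were used for levels and 2 alternatives.

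The host was the protein-coding locus with the same name on the same chromosome with the highest mean count. Counts were tested with edgeR 4.0.16 (quasi-likelihood, TMM, group alone, two-sided, Benjamini-Hochberg at 0.05) over 21372 named loci, with library sizes over named loci. The 5640 unnamed loci, 8.88 to 11.5% of counts, were left out. Ratios used limma 3.58.1 on log2((locus + 0.5)/(host + 0.5)) counts. CPM is TMM-normalised. Log2 fold changes are atretic minus healthy. Alternatives included DESeq2 1.42.0, other filters and scalings, and each library left out. Both tests were tested on simulated counts. Software was Python 3.11.15 with matplotlib 3.10.9 and pandas 2.3.3, and R 4.3.3.

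Loci named were the 8 with the highest counts, the longest, the 8 higher and 8 lower with the smallest p (mean of at least 50 counts, no overlap in CPM), the 4 pairs with the smallest ratio p in each direction, and up to 3 per host list. Of these, 3 are not reported here. Loci and lists were chosen with earlier results of these data known.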

Additional observations from a re-analysis of the deposited data

How the results depend on the processing

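The absence of calls over the 1911 loci held (0 calls) with DESeq2's size factors in edgeR, without a count filter, with unnamed loci included and with any library but healthy replicate 3 left out. DESeq2 called 30 (26 higher, 4 lower), the filter of a mean of at least 1 FPKM 1 (higher) and limma on log2(FPKM + 1) 1 (higher), MSTRG.25277 in both. Leaving out each library gave 0 to 101 calls, 0 to 70 higher and 0 to 31 lower, the upper ends without healthy replicate 3. By length class from the shortest, these ranges were 0 to 16, 0 to 11, 0 to 15 and 0 to 59 calls, and the median log2 fold changes ranged over -0.0829 to 0.21, -0.0852 to 0.10, 0.0062 to 0.13 and 0.0193 to 0.32. Quartiles of length in place of the classes gave medians of 0.0243 and -0.0051 for the second and the third class. Ratio calls ranged over 0 to 2 between left-out libraries and were 0 under the other settings, among them 0 of 1628 pairs within 10000 bases of the host, a limit chosen after seeing the data.

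The labels do not say whether the replicate numbers pair the libraries. Same-numbered deviations correlated at -0.08, 0.06 and -0.01, which with 3 libraries a group cannot exclude a pairing. The replicate block gave 0 calls for loci (110 at an unadjusted p of 0.05) and 0 for ratios (108). Under it the log2 fold change of SUGCT was 0.0696 and that of PARM1 0.15.

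Signs turned at 6 of the named loci when single libraries were left out. The log2 fold changes then ranged over -2.50 to 1.35 at SUGCT, -2.39 to 0.44 at TOX and -0.71 to 0.10 at MSTRG.27957, with the sign turned without healthy replicate 3 in each. They ranged over -0.35 to 0.96 at NR4A3 (-0.31 without atretic replicate 3, -0.0028 without healthy replicate 3), -0.0915 to 0.26 at the GRIA2 locus MSTRG.11319 (-0.0207 without healthy replicate 2) and -0.81 to 0.12 at PARM1 (turned without healthy replicate 1). The cause was not tested. Of the values for single named loci under all settings, 390 kept direction and call, 24 passed the threshold newly and 11 turned. Loci under 100 counts, 1432 of 1911, limit what these depths can show.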
